A study of Mus musculus with 6 samples.

Results

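The 10 genes described here encode folding factors of the endoplasmic reticulum (ER): Hspa5, Hsp90b1, Sdf2l1, Manf, Creld2, Dnajb9, Dnajb11, Pdia4, Pdia6 and Hyou1. They were chosen by gene name and stand among 19616 features, 1 per gene, that were compared between a control diet and a diet restricted in carbohydrate. The arrays carry 13 probes for the 10 genes, of 39429 probes in all, and every one was well above background on all 6 arrays, so no member was lost to the filter on dim probes.

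RNA came from the non-tumour part of the liver. The animals were 6 males of the inbred strain C57BL/6, of which 3 ate the control diet and 3 the restricted one. The same cancer model was used in both groups: a transposon vector with HrasG12V (an activated human Ras), shp53 (a short hairpin RNA against p53) and GFP4 was delivered to the liver through the tail vein under pressure, so the control livers are not livers of untreated mice. All animals entered the experiment at 5 weeks of age. The sample labels give 1 week of feeding before the injection and 5 weeks of diet, whereas the text for the whole series gives 2 weeks and 4 weeks; that text also adds plant compounds to the restricted diet. The sample titles call the restricted diet a moderate restriction and use the word supplemented for both diets, without naming a supplement. Each mouse gave 1 single-colour array, and 3 arrays per diet limit the precision of every value. Arrays correlated at 0.976 to 0.988 within a diet and at 0.925 to 0.947 between diets, across probes, and none of the 6 stood apart from its group.

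The ER is where secreted and membrane proteins fold, and hepatocytes, which make most plasma proteins, hold a large amount of it. Hspa5 (BiP) is the ER's Hsp70: it binds unfolded chains and releases them in cycles driven by ATP, with J-domain proteins that start the cycle and Hyou1 that exchanges the nucleotide. Hsp90b1 (GRP94) is the ER's Hsp90, and Pdia4 and Pdia6 are protein disulfide isomerases, which make and rearrange disulfide bonds. Most of these genes are textbook targets of the unfolded protein response (UPR), in which the sensors Atf6, Ern1 (IRE1) and Eif2ak3 (PERK) detect unfolded protein and act through the transcription factors Atf6, Xbp1 and Atf4. Their promoters are known for the ER stress response element (ERSE), a CCAAT box and a CCACG core at a fixed distance.

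Promoter sequence from RefSeq (GRCm38.p6) was available for 8 of the 10 members, as the 250 bases before and 50 bases after the transcription start. The element, CCAAT then 9 bases of any kind then CCACG, searched on both strands, was present in the windows of Hspa5, Hsp90b1, Creld2 and Pdia6, which is 4 of 8 members against 0.119% of all 32851 windows. These 4 promoters are printed below because they show the shared element, beside those of Sdf2l1, which had the largest difference between the diets, and Dnajb9, which had the smallest; neither of the last pair holds it. Each line gives the 250 bases before the start, 5′ to 3′ on the strand of the gene, with the fixed letters of the element in capitals (where it lies on the opposite strand they read CGTGG and then ATTGG).
Hspa5, chr2:34771840-34772089, plus strand: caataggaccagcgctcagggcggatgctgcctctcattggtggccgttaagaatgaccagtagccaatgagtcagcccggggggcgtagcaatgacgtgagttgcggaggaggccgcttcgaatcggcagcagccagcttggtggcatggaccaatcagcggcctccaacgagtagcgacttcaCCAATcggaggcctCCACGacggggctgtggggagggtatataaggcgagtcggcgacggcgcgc
Hsp90b1, chr10:86705445-86705694, minus strand: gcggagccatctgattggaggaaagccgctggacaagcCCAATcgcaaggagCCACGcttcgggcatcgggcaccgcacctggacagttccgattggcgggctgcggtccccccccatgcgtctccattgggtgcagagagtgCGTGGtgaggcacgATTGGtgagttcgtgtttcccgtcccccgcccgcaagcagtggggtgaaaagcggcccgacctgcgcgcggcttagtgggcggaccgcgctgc
Creld2, chr15:88819396-88819645, plus strand: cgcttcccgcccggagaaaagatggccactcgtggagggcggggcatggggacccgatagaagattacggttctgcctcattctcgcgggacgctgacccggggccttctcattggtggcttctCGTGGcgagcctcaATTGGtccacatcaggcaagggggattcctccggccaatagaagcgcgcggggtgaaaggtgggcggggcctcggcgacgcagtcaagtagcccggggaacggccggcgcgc
Pdia6, chr12:17266339-17266588, plus strand: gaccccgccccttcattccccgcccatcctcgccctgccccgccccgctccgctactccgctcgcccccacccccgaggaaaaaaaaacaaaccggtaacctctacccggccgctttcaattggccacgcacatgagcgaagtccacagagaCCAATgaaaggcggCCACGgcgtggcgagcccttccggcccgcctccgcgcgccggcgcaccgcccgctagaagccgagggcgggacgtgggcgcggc
Sdf2l1, chr16:17132384-17132633, minus strand: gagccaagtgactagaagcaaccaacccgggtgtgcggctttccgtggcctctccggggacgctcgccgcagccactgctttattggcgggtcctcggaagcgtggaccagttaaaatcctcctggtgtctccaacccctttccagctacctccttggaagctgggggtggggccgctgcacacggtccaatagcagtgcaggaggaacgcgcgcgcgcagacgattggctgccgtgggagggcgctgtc
Dnajb9, chr12:44210069-44210318, minus strand: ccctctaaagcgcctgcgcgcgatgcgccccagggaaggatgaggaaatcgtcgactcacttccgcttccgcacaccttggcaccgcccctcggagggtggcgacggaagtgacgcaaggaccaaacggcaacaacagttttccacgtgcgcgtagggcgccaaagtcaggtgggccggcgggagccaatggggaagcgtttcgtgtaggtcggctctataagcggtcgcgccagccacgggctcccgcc

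Counted from the start site, the element lies at positions -65 to -47 in Hspa5 and -98 to -80 in Pdia6 on the gene's strand, and at -126 to -108 in Creld2 on the opposite strand. Hsp90b1 holds it in both orientations, at -212 to -194 on the gene's strand and at -107 to -89 on the opposite strand. A shorter form without the last base, ending in CCAC, added Pdia4 at -107 to -90 on the opposite strand, and 0.365% of all windows hold this form, which every match of the longer form also contains. Dnajb11 holds the related ERSE-II element (ATTGG, any 1 base, CCACG) 7 to 17 bases after its start, a sequence found in 0.0365% of windows. The UPR element TGACGTGG, found in 0.676% of windows, and the C/EBP-ATF composite TGATGNAAT, found in 0.965%, were in none of the 8 windows. CCAAT alone and CCACG alone were in all 8 but also in 37.4% and 32.8% of all windows. A match is a description of the letters in these windows, and binding of a factor was not measured.

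**Figure D1:**
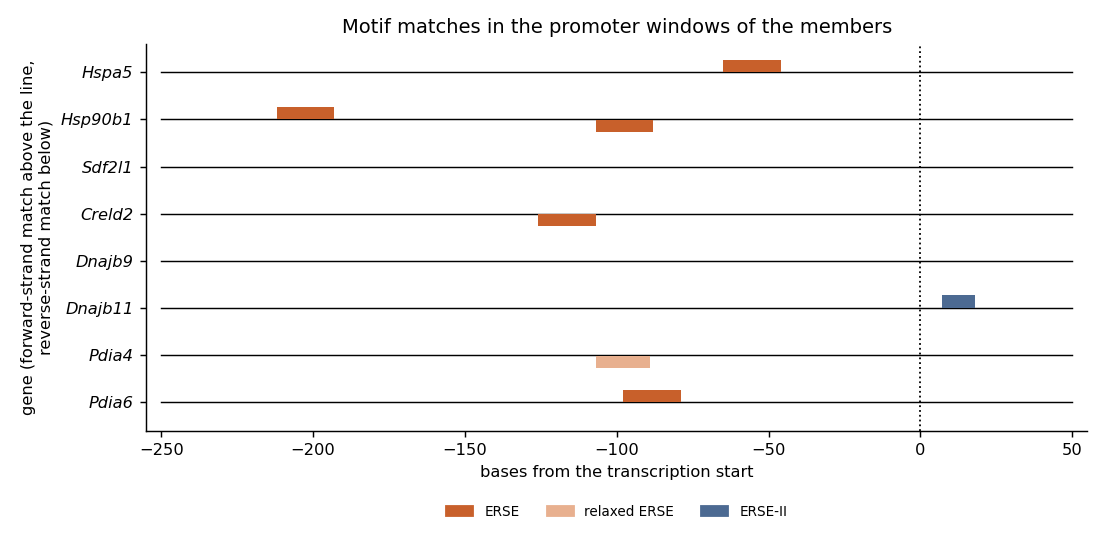
Positions of the 3 ER stress elements in the promoter windows of the 8 members with a RefSeq sequence; the horizontal axis is the distance in bases from the transcription start (dotted line), boxes above a line are matches on the strand of the gene and boxes below it are matches on the opposite strand. Hspa5, Hsp90b1, Creld2 and Pdia6 carry the full element, Pdia4 the shorter form, Dnajb11 the ERSE-II element just after its start, and Sdf2l1 and Dnajb9 none of the 3.

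The comparison of diets asked how expression in the liver outside the tumours differed with the restricted diet. Of the 10 chaperones 9 fell in the mice on the restricted diet (limma, adjusted p under 0.05 over all 19616 features), by 1.72-fold to 3.85-fold, and Dnajb9 did not pass the test. No member was called higher. Over all features 12.8% were called lower, and 27.5% in either direction. In the same 9 genes each restricted mouse lay below each control mouse, against 18.8% of all features, and the median difference of the members was -1.01 log2 units against 0.12 over all features. Values here are on the log2 scale, with the 75th percentile of each array set to 0, and differences are restricted minus control, with the standard error (SE) of the fit. Probes of different genes bind with different strength, so levels are compared between mice and not between genes. Because the tissue is a mixture, fewer cells of a type and less RNA per cell cannot be told apart.

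**Figure D2:**
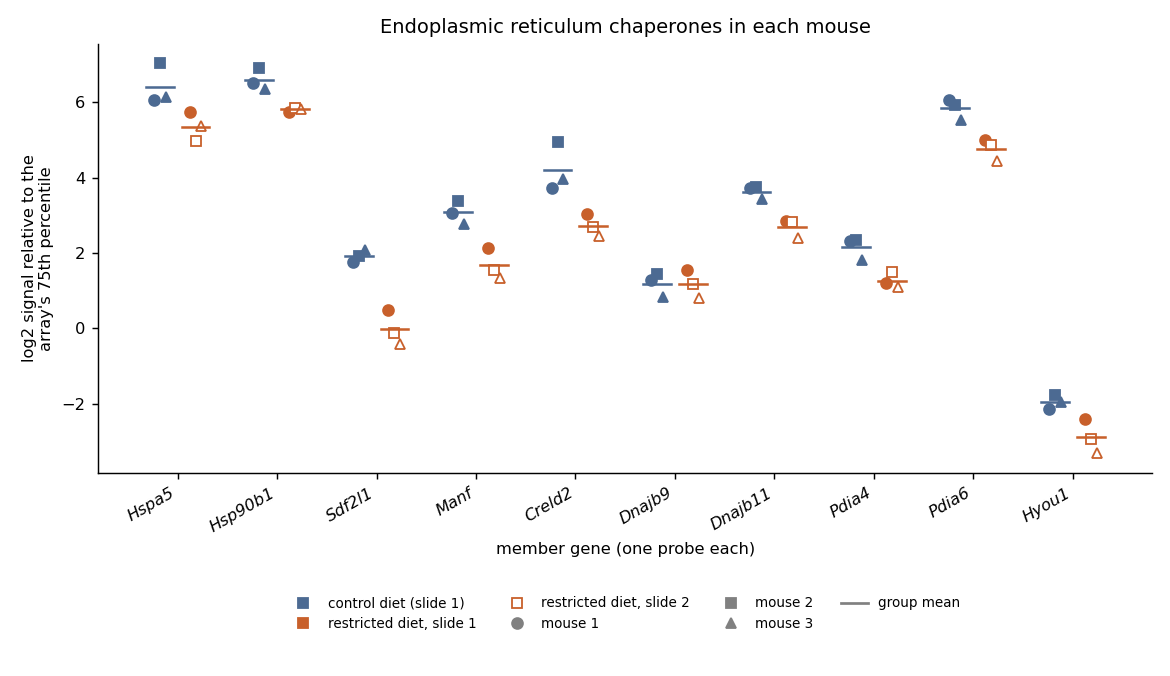
Log2 signal with the 75th percentile of each array set to 0 (vertical axis) for the 10 chaperones in each mouse; circles, squares and triangles are mice 1, 2 and 3 of a diet, filled orange symbols are the restricted mouse on slide 1, open orange symbols those on slide 2, and bars are group means. The groups are separate for 9 genes and overlap for Dnajb9, where both means are 1.18.

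Hspa5 gave 6.06, 7.03 and 6.15 in the 3 control mice and 5.73, 4.97 and 5.36 in the 3 restricted mice. Control mouse 2 was the highest and its spot was saturated, so its value is a lower bound. Even so the groups did not overlap. The means were 6.41 ± 0.54 (SD, n = 3) and 5.35 ± 0.38 (SD, n = 3), a difference of -1.06 ± 0.32 (SE), or 2.08-fold lower (95% interval of the log2 difference -1.82 to -0.30, adjusted p = 0.0484). The call was close to the threshold: without control mouse 2 the difference was -0.75 (adjusted p = 0.119), and it was lost without any single mouse other than restricted mouse 1 (adjusted p up to 0.149). The probe lies at chr2:34631913-34631972 (mm9, plus strand); for this and the other probes no mm9 gene models were used, so exon or UTR is not given.

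Hyou1, the large Hsp70 relative that exchanges nucleotide on BiP, is read by a probe at chr9:44199354-44199413 (mm9, plus strand) with processed signals of 91.8 to 133 in control mice and 28.9 to 71.3 in restricted mice. Its relative values were -2.15, -1.78 and -1.96 in control mice and -2.41, -2.94 and -3.32 in restricted mice. The groups were separate, with restricted mouse 1 nearest to the controls. The difference was -0.92 ± 0.26 (SE; 95% interval -1.54 to -0.31), 1.9-fold lower with adjusted p = 0.0382. Normexp background correction, which adds an offset of 50 to each signal, brought it to -0.34 (adjusted p = 0.156), and the call was lost without any single mouse other than restricted mouse 1 (adjusted p up to 0.123).

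The J-domain proteins among the members are Dnajb11 and Dnajb9. Dnajb11 (ERdj3), which hands unfolded chains to BiP, gave 3.72, 3.74 and 3.44 in control mice and 2.84, 2.81 and 2.39 in restricted mice with the probe at chr16:22872067-22872126 (mm9, plus strand). All restricted values were below all control values. The difference was -0.95 ± 0.20 (SE; 95% interval -1.42 to -0.48), 1.93-fold lower (adjusted p = 0.0133), and it missed the threshold only without control mouse 2 (adjusted p = 0.054) among the 6 mice left out in turn.

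A further Dnajb11 probe, 7545 bases away at chr16:22879612-22879671, moved the other way. It gave -1.41, -1.16 and -1.07 in control mice and 0.45, -0.27 and -0.01 in restricted mice, again with no overlap, but with the restricted mice higher. With every probe fitted as its own feature this probe rose by 1.27 ± 0.23 log2 units (SE, adjusted p = 0.00758), a fit in which 14.1% of probes were called higher. The count of members uses the probe with the higher mean signal, so the fall of Dnajb11 holds for that probe, and which transcript each probe reads was not tested.

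Dnajb9 (ERdj4), another J-domain protein of the ER and a well-known target of Xbp1, gave 1.27, 1.44 and 0.83 in control mice and 1.55, 1.18 and 0.80 in restricted mice (chr12:45307313-45307372, mm9, minus strand). The ranges overlapped, restricted mouse 1 was the highest of all 6 and restricted mouse 3 the lowest. The difference was -0.00 ± 0.26 (SE; 95% interval -0.62 to 0.61, adjusted p = 0.993), an interval that still allows a change in either direction. Its sign is not settled: it was 0.09 with median scaling and 0.01 with normexp. A dimmer Dnajb9 probe 959 bases away differed by -0.04 ± 0.41 (SE, adjusted p = 0.952) and overlapped as well.

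Sdf2l1, a small ER protein that works in a complex with Dnajb11, showed the largest difference of the 10. It gave 1.75, 1.92 and 2.09 in control mice and 0.49, -0.14 and -0.42 in restricted mice (chr16:17130426-17130485, mm9, minus strand). The lowest control mouse stood well above the highest restricted mouse. The means were 1.92 ± 0.17 (SD, n = 3) and -0.02 ± 0.46 (SD, n = 3), so Sdf2l1 fell by 1.94 log2 units (SE 0.26, 95% interval -2.56 to -1.33), or 3.85-fold, with adjusted p = 0.00243. It kept its call in all 19 alternative settings tried, with differences of -2.20 to -1.43 and adjusted p of 0.000725 to 0.0396. Over all features 5.63% had a lower difference.

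Hsp90b1, which finishes the folding of integrins and Toll-like receptors among other clients, gave 6.51, 6.91 and 6.36 in control mice and 5.75, 5.86 and 5.82 in restricted mice (chr10:86153770-86153829, mm9, minus strand). The restricted mice lay close together, with an SD of 0.05 against 0.28 in control mice, and below every control mouse. Hsp90b1 was 1.72-fold lower, at -0.78 ± 0.19 (SE; 95% interval -1.24 to -0.32, adjusted p = 0.0245), the smallest of the called differences. Leaving out any single mouse other than control mouse 3 raised the adjusted p above 0.05, to at most 0.0786.

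Both disulfide isomerases fell. Pdia6, which acts on proteins held by BiP, gave 6.07, 5.93 and 5.53 in control mice and 4.99, 4.87 and 4.43 in restricted mice (chr12:17291070-17291129, mm9, plus strand). The groups were separate and control mouse 3 and restricted mouse 3 were the lowest of their diets. The difference was -1.08 ± 0.23 (SE; 95% interval -1.63 to -0.54), 2.12-fold lower (adjusted p = 0.0144). A separate Pdia6 probe 253 bases away gave -1.24 ± 0.26 (SE, adjusted p = 0.0133), in the same direction, in the fit of every probe, where 12.6% were called lower. Without control mouse 1 or control mouse 2 the first probe missed the threshold (adjusted p up to 0.0555).

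Pdia4 (ERp72), which has more thioredoxin-like domains than Pdia6, gave 2.32, 2.35 and 1.81 in control mice and 1.21, 1.48 and 1.09 in restricted mice (chr6:47746516-47746575, mm9, minus strand). Restricted mouse 2 was the highest of its diet here, still below control mouse 3. Pdia4 was 1.86-fold lower, at -0.90 ± 0.22 (SE; 95% interval -1.41 to -0.39, adjusted p = 0.0221). The call was lost when control mouse 1 or 2 or restricted mouse 1 or 3 was left out (adjusted p up to 0.0821).

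Manf and Creld2 encode small proteins of the ER that are released from cells under ER stress. Manf, a binding partner of BiP that acts on its nucleotide cycle, gave 3.07, 3.38 and 2.77 in control mice and 2.14, 1.55 and 1.33 in restricted mice (chr9:106791278-106791337, mm9, minus strand). Each restricted mouse was below each control mouse. Manf was 2.64-fold lower, at -1.40 ± 0.27 (SE; 95% interval -2.04 to -0.76, adjusted p = 0.00969), and stayed below the threshold with each mouse left out in turn (adjusted p up to 0.0391).

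Creld2, an ER protein with epidermal growth factor-like domains, gave 3.72, 4.95 and 3.96 in control mice and 3.04, 2.70 and 2.44 in restricted mice (chr15:88656997-88657056, mm9, plus strand). Control mouse 2 stood above the rest, and the groups were separate. The probe is printed in 10 spots per array, whose SD of 0.028 to 0.057 log2 units on an array is small beside the SD of 0.65 among control mice and 0.30 among restricted mice. Creld2 was 2.8-fold lower, at -1.49 ± 0.34 (SE; 95% interval -2.30 to -0.67, adjusted p = 0.0192). Without restricted mouse 2 or restricted mouse 3 the adjusted p rose above 0.05, to at most 0.0603.

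**Figure D3:**
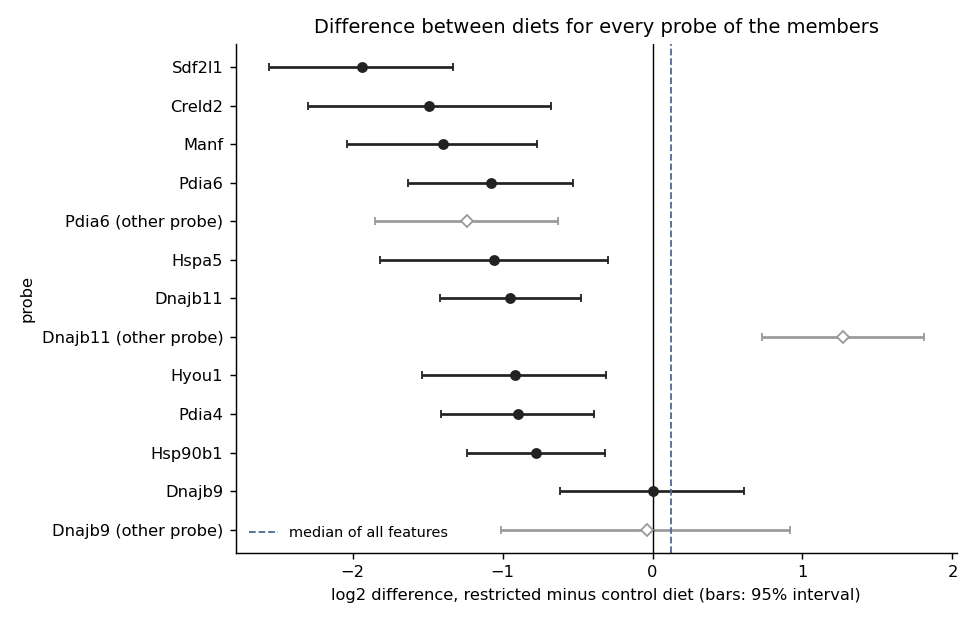
Fitted log2 difference, restricted minus control, for every probe of the chaperones with its 95% interval; filled circles are the probe used for the gene, open diamonds the other probes, and the dashed line marks the median of all features at 0.12. The intervals of 9 genes lie wholly below 0, from Sdf2l1 at -1.94 to Hsp90b1 at -0.78, Dnajb9 lies across 0, and the other Dnajb11 probe lies above 0 at 1.27.

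Averaged over the 10 genes and set against the mean of the control mice, control mice 1, 2 and 3 stood at -0.07, 0.28 and -0.21 log2 units and restricted mice 1, 2 and 3 at -0.77, -1.07 and -1.31. Control mouse 2 had the highest control value for 8 of the 10 genes, and restricted mouse 1 the highest restricted value for 8. The order of the members by difference ran Sdf2l1, Creld2, Manf, Pdia6, Hspa5, Dnajb11, Hyou1, Pdia4, Hsp90b1 and Dnajb9, with the place of Hspa5 not fixed because its saturated spot makes its fall a lower bound. From Sdf2l1 at -1.94 to Hsp90b1 at -0.78, each difference lay within the 95% interval of its neighbours in that order, whereas Dnajb9 lay outside that of Hsp90b1.

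Unequal change among the members was examined by setting each gene, within each array, against the mean of the other 9. Sdf2l1 shifted by -0.99 and Manf by -0.39 relative to the others, and Dnajb9 by 1.17, each with no overlap between the diets. Each gave p = 0.1 in a two-sided exact permutation test, the smallest that 3 mice against 3 allow, so none of the 10 such tests could pass 0.05. Creld2 shifted by -0.48 with overlapping groups (exact permutation p = 0.2). For Hspa5 the shift was -0.01 and for Pdia6 -0.03, with overlapping groups.

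The slide limits how far diet can be separated from the array run. All 3 control mice and restricted mouse 1 were on slide 1, and restricted mice 2 and 3 on slide 2. Restricted mouse 1, the one that shares the slide with the controls, was below the control mean in the 9 genes, by 0.44 for Hyou1 to 1.43 for Sdf2l1 on the log2 scale, and below every control mouse in each of them. With slide as a block only Sdf2l1 was still called (adjusted p = 0.019), 1 of 10 members, where 9.65% of all features were called lower. The slide 1 mice alone give the same contrast of restricted mouse 1 with the controls, with the spread taken from the control mice, and left the same call, Sdf2l1 (adjusted p = 0.0396), with 8.15% of features lower. Neither fit is a check by a further mouse. Hspa5 differed by -0.69 in these fits and by -1.25 for the slide 2 mice, and Hyou1 by -0.44 and -1.16.

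The number of members called depended on single mice as well. It was 4 without control mouse 1, 3 without control mouse 2, 5 without restricted mouse 2 and 4 without restricted mouse 3, where 9.8%, 8.92%, 9.41% and 11% of all features were called lower. It was 7 without control mouse 3 and 7 without restricted mouse 1, with 12.7% and 11% of features lower. An unmoderated pooled test called 4 members (8.32% of features lower), and limma at adjusted p under 0.01 called 2, Sdf2l1 and Manf (7.22% of features lower). Sdf2l1 and Manf were called in all 6 of these fits, and the direction of the 9 genes was lower in each.

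Of 15 UPR sensors and transcription factors 2 fell, Creb3l2 and Eif2ak3, none rose, and the list's median difference was -0.23. That share is close to the 12.8% of all features called lower. Creb3l2, an ER-anchored transcription factor of the secretory pathway, fell by 1.51 ± 0.34 log2 units (SE, adjusted p = 0.0174), and missed the threshold without control mouse 1 or control mouse 2 (adjusted p up to 0.0606). Eif2ak3, the sensor kinase that slows translation, gave 0.51, 1.05 and 0.35 in control mice and -0.02, -0.80 and -0.53 in restricted mice. It fell by 1.09 ± 0.28 (SE, adjusted p = 0.0272), a call lost without control mouse 1 or 2 or restricted mouse 2 or 3 (adjusted p up to 0.0921). With slide as a block neither was called.

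Xbp1, whose spliced form drives many ER genes, gave 6.03, 5.79 and 5.69 in control mice and 5.63, 5.15 and 5.08 in restricted mice. The groups did not overlap, but the difference of -0.55 ± 0.21 (SE) did not pass (adjusted p = 0.0989), and the probe does not tell spliced from unspliced RNA here. Atf6 differed by 0.68 ± 0.40 (SE, adjusted p = 0.256), Atf4 by -0.23 ± 0.22 (adjusted p = 0.473) and Ern1 by 0.11 ± 0.21 (adjusted p = 0.727). Ddit3 (CHOP), a marker of prolonged ER stress, differed by -0.25 ± 0.16 (SE, adjusted p = 0.29). None of these 5 passed, which does not show that they were equal.

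Among 26 other ER folding factors 4 fell, none rose, and the median was -0.29, a share of calls near the 12.8% over all features. Erp29, a chaperone of secreted proteins, gave 5.17, 5.26 and 5.12 in control mice and 4.13, 4.22 and 4.11 in restricted mice. Its difference of -1.03 ± 0.15 (SE, adjusted p = 0.00358) kept its call with each mouse left out, and its other probe gave -0.94 (adjusted p = 0.093). Calr (calreticulin), the soluble lectin chaperone, fell by 0.76 ± 0.18 (adjusted p = 0.0186), and its partner Pdia3 fell by 0.79 ± 0.17 (adjusted p = 0.0153). Dnajc10 (ERdj5), a disulfide reductase with a J domain, fell by 0.78 ± 0.16 (adjusted p = 0.0122), and its other probe gave -1.08 (adjusted p = 0.00653). Leaving out control mouse 2 or restricted mouse 2 or 3 ended the calls of Calr and Pdia3 (adjusted p up to 0.0687), and leaving out restricted mouse 2 that of Dnajc10 (adjusted p = 0.0551). With slide as a block Calr (adjusted p = 0.181), Pdia3 (0.161) and Dnajc10 (0.106) were not called and Erp29 was (0.0323), but on slide 1 alone Erp29 was not (0.075). Canx (calnexin), the membrane-bound lectin chaperone, differed by -0.12 ± 0.21 (adjusted p = 0.723), and P4hb, the abundant disulfide isomerase PDI, by -0.02 ± 0.35 (adjusted p = 0.974).

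ER-associated degradation, which removes misfolded protein, had 1 gene lower and 1 higher of 20, with a median of 0.04. Over all features 12.8% were called lower and 14.6% higher, both above the shares in this list. Derl3, a derlin of the retrotranslocation machinery, gave -0.61, 1.25 and 0.83 in control mice and -3.03, -2.76 and -1.21 in restricted mice. It fell by 2.82 ± 0.62 (SE, adjusted p = 0.0157) and missed the threshold without control mouse 2 or restricted mouse 2 (adjusted p up to 0.0561). Vcp, the ATPase that pulls proteins out of the membrane, rose by 0.63 ± 0.17 (adjusted p = 0.0365), a call lost with any mouse left out (adjusted p up to 0.11) and with slide as a block (adjusted p = 0.204), where Derl3 was still called (adjusted p = 0.0406). Herpud1, a membrane component of the ligase complex, differed by 0.63 ± 0.37 (adjusted p = 0.251). Restricted mouse 1 was at 6.39 and the other restricted mice at 5.00 and 5.37. With slide as a block Herpud1 rose by 1.44 and was called (adjusted p = 0.0331), where 5.71% of all features were called higher. That contrast rests on restricted mouse 1.

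Of 20 genes of the translocon and signal peptidase none passed limma's test in either direction, and the median was -0.14. Over all features 12.8% were called lower and 14.6% higher, and the N-glycosylation and transport lists below also had smaller shares called in each direction. The translocon genes with the smallest p were Ssr1 at -0.46 (adjusted p = 0.0758) and Sec61a1, the channel itself, at -0.48 (adjusted p = 0.0919). In N-glycosylation 1 of 19 genes fell: Rpn1, a subunit of oligosaccharyltransferase, fell by 0.85 ± 0.16 (SE, adjusted p = 0.00886), and Ddost of the same complex differed by -0.60 (adjusted p = 0.0615). Rpn1 kept its call with each mouse left out but not with slide as a block (adjusted p = 0.0525) or on slide 1 alone (0.112). In transport from ER to Golgi 1 of 19 rose: Sar1b, the GTPase that starts COPII coats, by 1.34 ± 0.38 (SE, adjusted p = 0.0392), a call kept only without restricted mouse 3 among the 6 mice left out (adjusted p up to 0.121 otherwise), and not called with slide as a block (adjusted p = 0.121). Sec24a, a cargo adaptor of that coat, differed by 0.93 (adjusted p = 0.0614) at the probe with the highest mean signal, while its other probes gave 0.96 (adjusted p = 0.0173) and 0.63 (adjusted p = 0.0338) in the fit of every probe.

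In other compartments no chaperone was called lower by limma. Of 21 cytosolic chaperone genes 2 rose, the Hsp70 co-chaperones Dnaja2 by 0.89 ± 0.16 (SE, adjusted p = 0.00728) and Dnaja1 by 0.90 ± 0.21 (adjusted p = 0.0186), none was called lower, and the median was 0.15, against 14.6% of all features called higher. In the fit of every probe the other probes gave 0.66 for Dnaja2 (adjusted p = 0.0461) and 0.72 for Dnaja1 (adjusted p = 0.0948). Of 9 mitochondrial chaperones and proteases 6 rose, none was called lower, and the median was 0.87. Trap1, the mitochondrial Hsp90, gave 1.35, 1.05 and 1.01 in control mice and 2.37, 2.35 and 1.95 in restricted mice, a rise of 1.09 ± 0.20 (SE, adjusted p = 0.00786). Hspd1 (Hsp60) rose by 0.87 (adjusted p = 0.0142), Lonp1 by 0.79 (adjusted p = 0.0144) and Clpp by 0.86 (adjusted p = 0.0159). Dnaja2 and Trap1 kept their calls with each mouse left out, whereas Dnaja1 missed the threshold without restricted mouse 1 or 2, Hspd1 without control mouse 2 or restricted mouse 2, Lonp1 without control mouse 1, and Clpp without control mouse 1 or 2 or restricted mouse 2 (adjusted p up to 0.0675). With slide as a block Dnaja2 (adjusted p = 0.0423) and Trap1 (0.038) were called and Dnaja1 (0.0889) was not, and on slide 1 alone Dnaja2 (0.0945) and Trap1 (0.0615) were not. With slide as a block 3 of the 9 mitochondrial genes were called higher (5.71% of all features), and on slide 1 alone none of the 9 passed limma's test (3.34% of all features).

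**Figure D4:**
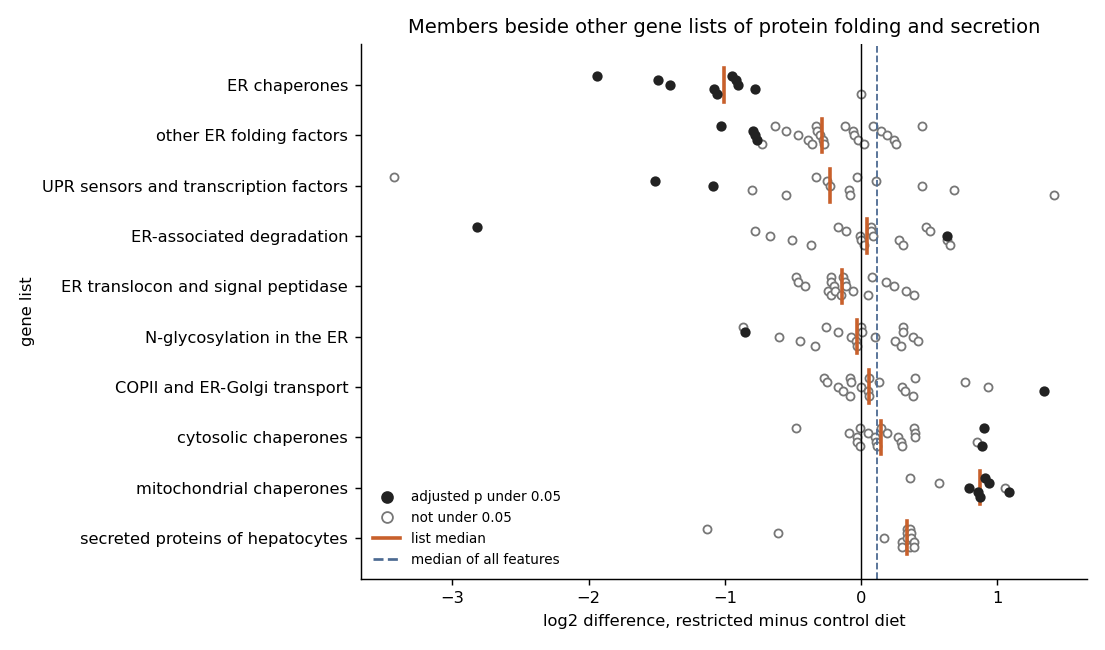
Fitted log2 difference, restricted minus control, for every tested gene of the ER chaperones and of the related lists; each point is a gene, filled where adjusted p is under 0.05, and the short bar is the list's median. The ER chaperones have a median of -1.01, the other ER folding factors -0.29, and the mitochondrial chaperones 0.87.

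Most of the secreted proteins that these chaperones fold could not be read well: of 15 hepatocyte plasma protein genes 11 were saturated on all 6 arrays. Fga and Apob, saturated on no array, differed by -1.13 (limma, adjusted p = 0.129) and 0.17 (adjusted p = 0.559). Apoa1, saturated on 1 array, differed by -0.61 (adjusted p = 0.0938), and F2, saturated on 3, by 0.30 (adjusted p = 0.344). Hepatocyte markers were bright in every mouse, with a summed level (relative to the array's 75th percentile, linear scale) of 1000 to 1320 in control and 1290 to 1570 in restricted mice. Of 12 markers none was called lower and 1 rose, but 7 were saturated on at least 1 array, 4 of them on all 6. A saturated spot stays at the scanner's limit, so its scaled value follows the array's 75th percentile. Alb, saturated on all 6 arrays, read 6.83 in control mouse 1 (75th percentile signal 574) and 7.86 in restricted mouse 3 (signal 287). The sums therefore do not show whether hepatocyte RNA was kept, fell or rose. Markers of other cell types of the liver moved with the diet. Over all features 12.8% were called lower and 14.6% higher, for comparison with the counts that follow. All 12 macrophage markers fell, and their summed level was 170 to 222 in control and 28.2 to 42.6 in restricted mice. In the fit of every probe the other Csf1r probes gave -2.11 (adjusted p = 0.00158) and 0.66 (adjusted p = 0.0574). Plasma cells, which are rich in ER, had 4 of 6 tested markers lower and a sum of 6.47 to 10.9 against 3.25 to 5.33. Most of that sum is Sdc1, the brightest of the 6, at 3.11, 2.69 and 2.01 in control mice and 1.95, 2.22 and 1.18 in restricted mice. Sdc1 was not called by limma (adjusted p = 0.145) and its groups overlapped, so the sum says little about the other plasma cell markers. The plasma cell markers Tnfrsf17 and Cd79a did not pass the filter on dim probes. Restricted mouse 1, on the slide of the controls, had sums of 28.2 for macrophage and 4.34 for plasma cell markers. Neutrophil markers fell in 6 of 8 and rose in 1 (30.2 to 104 against 4.84 to 25.8). The sum of 25.8 is that of restricted mouse 1, near the lowest control mouse on the same slide. Stellate cell and fibroblast markers fell in 6 of 10 (114 to 149 against 46.5 to 76.0), and bile duct markers fell in 3 of 6 (4.45 to 5.42 against 0.852 to 1.82). In the stellate cell and bile duct lists restricted mouse 1 had the lowest sum. Some of these calls follow in part from the filter, since the gene was not well above background on all 6 arrays and was tested because it was bright in control mice: Irf4 of the 4 plasma cell calls, Ltf, Mpo and Ngp of the 6 neutrophil calls, Epcam and Krt7 of the 3 bile duct calls, and Cd163 of the 12 macrophage calls. Endothelial markers rose in 4 of 8 (22.1 to 33.9 against 38.4 to 51.7), of which Tek was likewise tested because it was bright in restricted mice. The part of these cell types in the lower chaperone levels was not tested.

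By the closeness of their 6 values, centred on their own mean, to the centred mean of the 10 chaperones, the 5 nearest genes outside the group were Map4k4, Fam43a, Socs2, Rap1b and Heg1. Their root mean square distances were 0.09 to 0.11 log2 units over the 6 arrays. Chosen in this way, they had to differ between the diets much as the members' mean did. Their differences ran from -0.92 for Rap1b to -1.10 for Heg1.

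The promoter element was also looked up across the genome. Outside the members 33 genes have a window with the full element, and 16 of them were tested. Of these 4 were called lower and 1 higher, and the median difference was -0.35, with 12 below 0. Over all features 12.8% were called lower and 14.6% higher, and the median difference was 0.12. Of all features 41.9% had a difference below the -0.00 of Dnajb9. This group was formed after the members' values were known, so its counts are a description. The 4 lower genes were Derl3, Adcy3 at -1.77, Calr and Hnrnpa3 at -0.66, and the 1 higher was Acacb, an acetyl-CoA carboxylase, at 2.63.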

How the data were processed

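The intensity values were the scanner software's processed signals, deposited by the authors for each array; per the file headers the software was Agilent Feature Extraction 10.7.3.1 (9.3.2.1 per the submitters' processing notes) on array design 026655, with probe positions on mm9. The authors' deposited value table holds the same intensity signals on the linear scale, not centred: its column medians are 27.52 to 52.12, and 99.67% to 99.77% of probes lie within 0.1% of the mean of the processed signals.

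From 43020 spots per array, outlier spots (127 to 251) were left out, log2 was taken, spots were averaged per probe and the array's 75th percentile (signal 287 to 574) was subtracted. Each array had 23527 to 25816 of its 39429 probes well above background. A probe was kept where every measured array of 1 or both diets was well above background (24234 probes), and the brightest probe per gene by mean signal was taken (19616 features). Diets were tested with limma 3.58.1 in R 4.3.3 with Benjamini-Hochberg adjustment over all features, after the code was tested on simulated data. Symbols were taken by accession from the RefSeq table of GRCm38.p6 for 26055 probes, which changed 3358 names. Nothing in the labels ties mouse numbers across the diets.

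The members, the gene lists and the tests were chosen with earlier results of these data known. Genes named beside the members were up to 4 called genes of each list with the smallest p (2 where fewer than 2 were called), a set of always-named UPR and folding genes, and the 5 genes with the pattern nearest to the members' mean. The genes with the promoter element were added after values were seen. Alternatives were normexp background correction, quantile and median scaling, the value table, no filter and a stricter one, trend and robust moderation, array weights, blocks for mouse number and slide, slide 1 alone, each mouse left out, every probe, an unmoderated pooled test and other thresholds.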

Additional observations from a re-analysis of the deposited data

How the results depend on the processing

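Across 19 alternatives the 9 chaperones other than Dnajb9 kept a negative difference in all 171 pairs of gene and setting and were called in 119. These pairs use the same probe of each gene as the main fit. They leave out the other Dnajb11 probe, which rose by 1.27 in the fit of every probe (limma, adjusted p = 0.00758). The number called lower was 9 and moved by more than 1.5 times to 1 with slide as a block, 1 on slide 1 alone (where the lone restricted mouse is taken to vary like the controls), 4 in the unmoderated pooled test and 2 at adjusted p under 0.01; with single mice left out it ranged from 3 to 7. The median difference of all 10 members was -1.29 with quantile normalization against -1.01 in the main fit. The labels do not pair mouse numbers across the diets. Correlations of same-numbered deviations were 0.38, -0.00 and 0.48, which do not settle whether the numbers pair the samples. With mouse number as a replicate block 8 members were called lower (15.2% of all features). Among the named genes signs turned for 5, none of which passed the test. Dnajb9 became 0.01 with normexp, 0.09 with median scaling, 0.37 with either slide setting, and ran from -0.19 to 0.19 with single mice left out (above 0 without control mouse 1, control mouse 2 or restricted mouse 3). P4hb became 0.07 with median scaling, 0.37 with either slide setting, and ran from -0.29 to 0.27 with single mice left out (above 0 without the same mice). Atf4 became 0.11 and Canx 0.04 with either slide setting, and Ern1 became -0.07 without control mouse 1. The cause was not tested. Slide and diet cannot be told apart for restricted mice 2 and 3, and saturation limits Hspa5 on 1 array.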
